A study of Mus musculus with 16 samples.

Results

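Insulin-like growth factor (IGF) genes were examined in the mouse aorta, namely the ligand Igf1, its receptor Igf1r and the 6 binding proteins Igfbp2 to Igfbp7. They were taken by gene symbol from the deposited tables, 8 of 54532 genes. RNA was measured in 16 aortas of male C57BL/6J mice operated on at 12 weeks of age, 1 library per mouse and 4 mice per group. The Sham group had a mock operation and ate the high-phosphate, low-protein (HPi-Lp) diet with 2% phosphorus and 2.5% protein. In the other groups most kidney mass was removed by 5/6 nephrectomy (5/6 Nx), and the mice ate the same diet (5/6 Nx-HPi-Lp), one with 2% phosphorus and 18% protein (5/6 Nx-HPi-Hp), or one with 0.3% phosphorus and 2.5% protein (5/6 Nx-LPi-Lp), for 30 days by the labels. Sham mice on the latter diets were not analysed here, so the comparison of 5/6 Nx-HPi-Lp with Sham carries the surgery at 1 diet, and the comparisons among operated mice carry the diet after surgery.

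IGF1 is a secreted peptide, made largely by the liver under growth hormone and also locally by many tissues, and its synthesis depends on protein intake. It acts through IGF1R, a receptor tyrosine kinase that signals through PI3 kinase and AKT and supports growth and survival of vascular smooth muscle cells. IGF-binding proteins hold the ligand in blood and in the matrix, and proteases such as PAPP-A release it by cleaving them.

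Library totals ranged from 13659525 to 57276915 counts, and each of the 8 genes had between 180 and 99583 counts in every library, so all passed the count filter in every comparison. The deepest libraries were 5/6 Nx-HPi-Lp replicates 2 and 3, with 57276915 and 46499243 counts. Mitochondrially encoded genes took 5.19% ± 1.01 (SD, n = 4) of the counts in Sham, 23.5% ± 3.36 in 5/6 Nx-HPi-Lp, 19.96% ± 8.78 in 5/6 Nx-HPi-Hp and 17.4% ± 2.83 in 5/6 Nx-LPi-Lp. Smooth muscle markers, which define the aortic media, were present in every library. Their sum ran from 20861 to 24871 CPM (counts scaled to the library size) in Sham, 2254 to 5114 in 5/6 Nx-HPi-Lp, 6817 to 22048 in 5/6 Nx-HPi-Hp and 7661 to 17604 in 5/6 Nx-LPi-Lp.

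By FPKM, which corrects for gene length and so allows levels of different genes to be compared, Igfbp7 was the most abundant of the 8 genes. Its mean was 1254 FPKM over the 16 libraries, rank 23 among all genes. Igfbp4 followed with 159 FPKM, then Igfbp6 with 97.4, Igfbp5 with 72.4, Igfbp2 with 22.3 and Igfbp3 with 10.9. The ligand and the receptor were the least abundant, Igf1 with 6.62 FPKM and Igf1r with 3.28. Igf2, the other IGF ligand, had at most 45 counts in any library and Igfbp1 at most 4, and both were below the count filter.

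In mm10 coordinates Igf1 lies at chr10:87858265-87937042 on the plus strand and Igf1r at chr7:67952827-68233668 on the plus strand. Igfbp2 (chr1:72824503-72852474, plus) and Igfbp5 (chr1:72857932-72874884, minus) are neighbours with 5457 bases between them. Igfbp3 (chr11:7206086-7213923, minus) lies 3539 bases from Igfbp1, and Igfbp4 is on the same chromosome at chr11:99041244-99054392 (plus). Igfbp6 lies at chr15:102144362-102149511 (plus) and Igfbp7 at chr5:77349240-77408041 (minus). Each entry is a protein-coding gene. On the opposite strand, Igf1 overlaps the antisense gene Igf1os, which had 0 to 139 counts per library, and Igfbp7 overlaps Polr2b, with 271 to 2394 counts, and the antisense gene Gm34648, with 0 to 8. Whether the counting used strand is not given in the sources used here, so reads of these pairs may not be separable.

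The promoters of 4 members are shown because their genes differed between groups in opposite directions. Igfbp3 (chr11:7213924-7214173, minus strand) and Igfbp4 (chr11:99040994-99041243, plus) belonged to the genes that were higher in 5/6 Nx-HPi-Lp than in every other group. Igf1r (chr7:67952007-67952256, plus) and Igfbp7 (chr5:77408046-77408295, minus) were lower in 5/6 Nx-HPi-Lp than in Sham. Each is the 250 bases before the RefSeq start on GRCm38.p6, the mm10 assembly, read 5′ to 3′ along the gene, and capitals mark the motifs found.
Igfbp3: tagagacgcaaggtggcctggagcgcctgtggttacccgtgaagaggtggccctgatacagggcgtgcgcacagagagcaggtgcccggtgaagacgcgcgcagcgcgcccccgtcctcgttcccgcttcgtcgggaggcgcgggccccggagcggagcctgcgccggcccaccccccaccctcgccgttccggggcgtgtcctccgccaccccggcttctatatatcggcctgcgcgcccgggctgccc
Igfbp4: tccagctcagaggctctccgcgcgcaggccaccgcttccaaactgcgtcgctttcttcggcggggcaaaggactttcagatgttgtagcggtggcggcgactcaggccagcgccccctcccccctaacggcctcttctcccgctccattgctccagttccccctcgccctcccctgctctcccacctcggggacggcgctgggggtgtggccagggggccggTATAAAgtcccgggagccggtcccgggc
Igf1r: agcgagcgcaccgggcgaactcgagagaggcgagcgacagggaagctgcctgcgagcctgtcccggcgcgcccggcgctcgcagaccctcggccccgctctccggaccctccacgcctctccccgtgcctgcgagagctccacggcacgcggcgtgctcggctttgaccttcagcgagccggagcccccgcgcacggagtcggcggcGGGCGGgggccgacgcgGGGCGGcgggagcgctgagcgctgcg
Igfbp7: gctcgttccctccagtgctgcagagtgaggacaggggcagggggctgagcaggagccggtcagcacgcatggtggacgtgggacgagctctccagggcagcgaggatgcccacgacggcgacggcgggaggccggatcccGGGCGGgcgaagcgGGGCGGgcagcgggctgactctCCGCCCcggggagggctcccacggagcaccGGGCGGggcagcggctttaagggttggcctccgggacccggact

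The motifs searched on both strands were the TATA box (letters TATAAA), the NF-Y site (letters CCAAT), the GC box (letters GGGCGG), the FOXO site (letters GTAAACA), the STAT site (letters TTCNNNGAA) and the ATF4 site (letters TGATGNAA). Igfbp4 held 1 TATA box, 28 to 23 bases before its start, and 12.4% of 32851 promoters of this length held one. Igfbp7 held 4 GC boxes and Igf1r 2, against 32.7% of promoters with at least 1. Igfbp3 held the exact letters of none of the 6 motifs, though its sequence holds the run tatatat, which was not searched for. Of the members not shown, Igfbp2, which was called higher than Sham, held 3 GC boxes in 1 of its 2 windows, Igf1 held 1 NF-Y match, Igfbp6 held 2 NF-Y matches and 1 TATA box, and Igfbp5 held none. The windows of Igf1 and Igfbp5 and the other Igfbp2 window overlap exons of their own genes. That of Igf1 (chr10:87860861-87861110) lies inside the gene. None of the 4 windows shown (Igfbp3, Igfbp4, Igf1r and Igfbp7) held the letters of an NF-Y, FOXO, STAT or ATF4 site. Such letters were present in 33.8%, 3.17%, 7.02% and 3.45% of promoters. For any of the 6 motifs, the TATA box included, a missing match says only that these letters are not in the window. All 4 windows shown were GC rich, with 73.2% (Igfbp3), 69.2% (Igfbp4), 77.6% (Igf1r) and 74.0% (Igfbp7) G or C beside a median of 52.4% over all promoters.

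**Figure D1:**
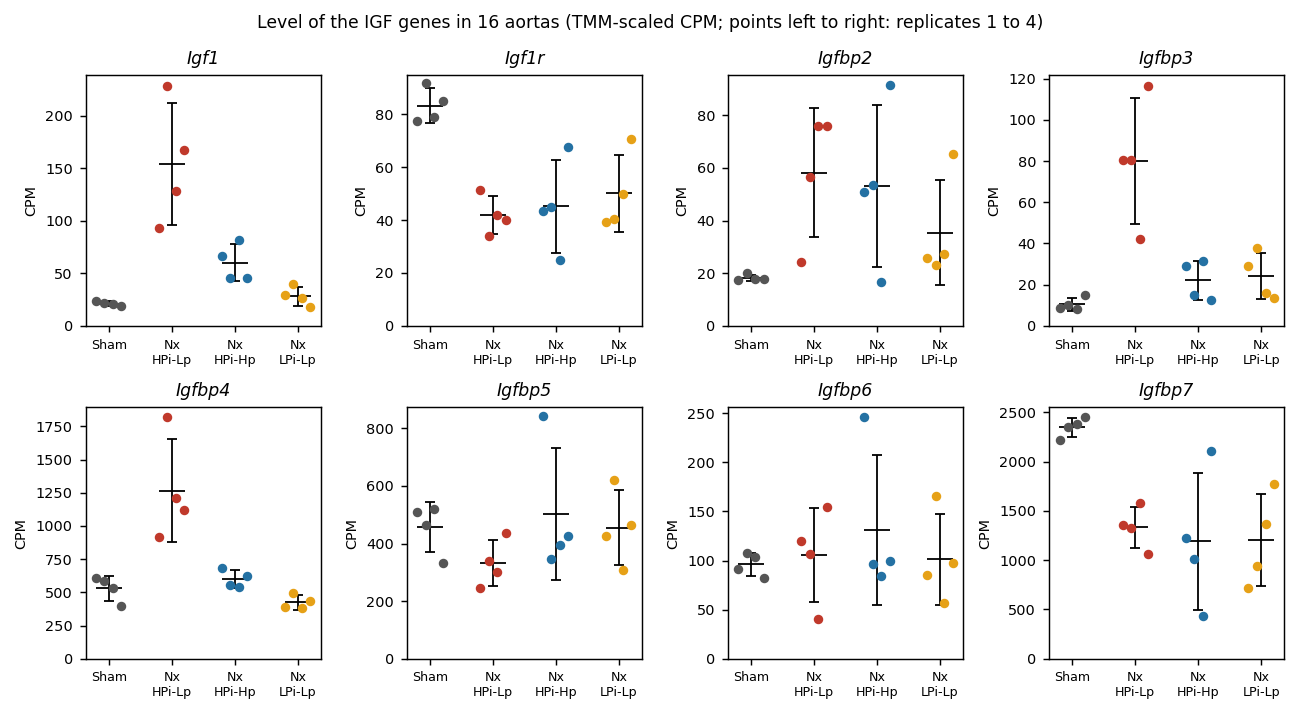
TMM-scaled CPM of each gene (vertical axis, from 0) in the 16 aortas, by group; points are mice, horizontal marks the group mean and bars the SD (n = 4). Igf1, Igfbp3 and Igfbp4 were higher in every 5/6 Nx-HPi-Lp library than in any other library, whereas Igf1r and Igfbp7 were higher in every Sham library than in any library of the operated mice.

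Igf1, the ligand, was highest in 5/6 Nx-HPi-Lp aortas. Sham libraries held 24.0, 21.7, 21.0 and 18.5 CPM, and 5/6 Nx-HPi-Lp libraries held 93.3, 228.8, 128.2 and 167.6. The 5/6 Nx-HPi-Hp libraries held 66.9, 46.0, 81.6 and 45.2 CPM, and those of 5/6 Nx-LPi-Lp held 29.7, 39.8, 26.2 and 17.8. The lowest 5/6 Nx-HPi-Lp library therefore lay above every library of the other groups, the 5/6 Nx-HPi-Hp libraries lay in the middle, and the 5/6 Nx-LPi-Lp libraries overlapped Sham. Igf1 was 7.02-fold higher in 5/6 Nx-HPi-Lp than in Sham (log2 fold change 2.81 ± 0.24 SE, edgeR quasi-likelihood adjusted p = 4.47e-05), 5.40-fold higher than in 5/6 Nx-LPi-Lp (2.43 ± 0.31, adjusted p = 0.00208) and 2.54-fold higher than in 5/6 Nx-HPi-Hp (1.35 ± 0.28, adjusted p = 0.0167). A gene was called when its adjusted p was at most 0.05 and its fold change at least 2, and Igf1 was called in all 3 comparisons. The last call ended on leaving out 5/6 Nx-HPi-Lp replicate 4 (adjusted p = 0.0536), 5/6 Nx-HPi-Hp replicate 2 (0.0600) or the deepest pair of 5/6 Nx-HPi-Lp libraries (log2 fold change 1.11, adjusted p = 0.0812).

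Macrophages and fibroblasts can make IGF1, and many of their markers were also called higher in 5/6 Nx-HPi-Lp. All 7 macrophage markers were called higher in 5/6 Nx-HPi-Lp than in Sham and than in 5/6 Nx-LPi-Lp, and 6 of 7 than in 5/6 Nx-HPi-Hp. Their sum ran from 137 to 186 CPM in Sham, 407 to 1313 in 5/6 Nx-HPi-Lp, 203 to 408 in 5/6 Nx-HPi-Hp and 151 to 242 in 5/6 Nx-LPi-Lp, and no marker was at 0 in a group. Fibroblast markers were called higher for 3 of 6 genes against Sham and for 5 of 6 against each of the other groups, and their sum was 1717 to 2638 CPM in Sham, 2872 to 12708 in 5/6 Nx-HPi-Lp, 1068 to 2651 in 5/6 Nx-HPi-Hp and 1117 to 1512 in 5/6 Nx-LPi-Lp. Against Sham, 5/6 Nx-HPi-Hp had Igf1 called as well, with 2 of 7 macrophage, 0 of 6 fibroblast and 6 of 6 adipocyte markers called higher. Replicate 3 had the highest Igf1 of that group. It also had the group's lowest macrophage (203 CPM) and fibroblast (1068 CPM) sums and its highest adipocyte sum (6878 CPM). In 5/6 Nx-LPi-Lp, where Igf1 was not called against Sham, 6 of 6 adipocyte markers were also called higher. The highest Igf1 and the highest fibroblast sum fell in the same library in 3 of 4 groups, and the lowest in 2 of 4. For the macrophage sum the highest libraries coincided in 2 of 4 groups and the lowest in 3 of 4. For the adipocyte sum the highest coincided in 1 of 4 and the lowest in 3 of 4. In 5/6 Nx-HPi-Lp, adipocyte markers were called higher for 5 of 6 genes against Sham. Against 5/6 Nx-HPi-Hp 0 of 6 were called, and against 5/6 Nx-LPi-Lp 1 of 6 was called higher. The part of these cells in the result was not tested. In whole tissue a change in the number of cells of a type and a change in RNA per cell cannot be told apart. Hepatocyte markers, from the main source of circulating IGF1, summed to 0.463 to 112 CPM over all libraries, with the maximum in 5/6 Nx-HPi-Hp replicate 3, and to 2.73 to 20.4 in 5/6 Nx-HPi-Lp, where Cyp3a11 was at 0. Of these 6 markers 3 were tested against Sham, and Fgb was called higher in 5/6 Nx-HPi-Lp (log2 fold change 2.32, adjusted p = 0.0372), as it was against 5/6 Nx-LPi-Lp (4.49, adjusted p = 0.0152; 1 of 2 tested), while 0 of 3 were called against 5/6 Nx-HPi-Hp. Without 5/6 Nx-HPi-Hp replicate 3, the Igf1 difference between 5/6 Nx-HPi-Lp and 5/6 Nx-HPi-Hp was 1.503 on the log2 scale (adjusted p = 0.0239).

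Igf1r, the receptor, went the other way. Its levels were 77.4, 91.7, 78.9 and 85.2 CPM in Sham and 51.3, 33.9, 41.8 and 40.2 in 5/6 Nx-HPi-Lp. In 5/6 Nx-HPi-Hp they were 43.3, 45.0, 24.98 and 67.8 CPM, and in 5/6 Nx-LPi-Lp 39.3, 40.6, 50.01 and 70.8. Every Sham library exceeded every library of operated mice, and the operated groups overlapped one another. Igf1r fell to 0.488 of its Sham level in 5/6 Nx-HPi-Lp (log2 fold change -1.03 ± 0.14 SE, adjusted p = 0.000372). Its fold lay at the threshold, and without 5/6 Nx-HPi-Lp replicate 2 the log2 fold change was -0.92 (adjusted p = 0.000408), past the p threshold but not the fold. It differed from Sham by -0.87 in 5/6 Nx-HPi-Hp (adjusted p = 0.0288) and by -0.71 in 5/6 Nx-LPi-Lp (adjusted p = 0.0151), both short of the fold threshold. Among operated mice, the intervals of the difference (95%) were -0.78 to 0.48 against 5/6 Nx-HPi-Hp and -0.75 to 0.19 against 5/6 Nx-LPi-Lp. The library with the highest Igf1r was also the one with the highest smooth muscle marker sum in 4 of 4 groups, the library with the lowest Igf1r was the one with the lowest sum in 2 of 4, and all 7 smooth muscle markers were called lower in 5/6 Nx-HPi-Lp than in Sham. The smooth muscle sums of 5/6 Nx-HPi-Lp (2254 to 5114 CPM) lay below those of every other library. Igf1r in that group (33.9 to 51.3 CPM) nevertheless overlapped the other operated groups (24.98 to 70.8). The part of smooth muscle content in the Igf1r difference was not tested.

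Igfbp3, the main carrier of IGF1 in blood, had the largest fold change against Sham among the binding proteins. It held 8.7, 9.9, 8.4 and 15.2 CPM in Sham and 80.7, 80.7, 42.1 and 116.5 in 5/6 Nx-HPi-Lp. The 5/6 Nx-HPi-Hp libraries held 29.0, 15.1, 31.5 and 12.7 CPM and the 5/6 Nx-LPi-Lp libraries 29.0, 37.8, 16.2 and 13.6. The 5/6 Nx-HPi-Lp libraries did not overlap with any other group, while the other operated groups spanned much the same range and each had its lowest library within the range of Sham. Igfbp3 was 7.36-fold higher in 5/6 Nx-HPi-Lp than in Sham (log2 fold change 2.88 ± 0.32 SE, adjusted p = 0.000122), 3.60-fold higher than in 5/6 Nx-HPi-Hp (1.85 ± 0.36, adjusted p = 0.0133) and 3.29-fold higher than in 5/6 Nx-LPi-Lp (1.72 ± 0.38, adjusted p = 0.0146). Without the deepest pair of libraries these log2 fold changes were 3.19, 2.15 and 2.01, all still called. Against Sham it was also called in 5/6 Nx-HPi-Hp (1.06 ± 0.32, adjusted p = 0.0319) and in 5/6 Nx-LPi-Lp (1.21 ± 0.33, adjusted p = 0.0216). Leaving out single libraries ended the first of these calls for Sham replicates 1, 2 and 3 and 5/6 Nx-HPi-Hp replicates 1 and 3 (log2 fold changes 0.84 to 1.02), and the second for Sham replicates 1, 2 and 3 and 5/6 Nx-LPi-Lp replicates 1 and 2 (0.90 to 1.17). Beside the macrophage, fibroblast and adipocyte markers given for Igf1, 4 of 4 tested sympathetic neuron markers were called higher in 5/6 Nx-HPi-Lp than in Sham, 1 of 6 than in 5/6 Nx-HPi-Hp and 3 of 6 than in 5/6 Nx-LPi-Lp. Their sum was 10.8 to 13.4 CPM in Sham, 40.7 to 1025 in 5/6 Nx-HPi-Lp, 15.8 to 152 in 5/6 Nx-HPi-Hp and 8.84 to 106 in 5/6 Nx-LPi-Lp. The library with the highest Igfbp3 had the highest macrophage sum in 1 of 4 groups, the highest fibroblast sum in 1 of 4 and the highest adipocyte sum in 2 of 4. The lowest libraries coincided in 1 of 4 groups for macrophages, 0 of 4 for fibroblasts and 2 of 4 for adipocytes. The sympathetic neuron sum was not set beside Igfbp3 in this way. The part of these cells in the Igfbp3 difference was not tested.

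Igfbp4, a binding protein that mostly restrains IGF1 and is the classical substrate of PAPP-A, was the third gene higher in 5/6 Nx-HPi-Lp than in every other group. Sham libraries held 606.7, 586.5, 535.2 and 393.5 CPM and 5/6 Nx-HPi-Lp libraries 913.7, 1821.4, 1209.0 and 1120.3. Those of 5/6 Nx-HPi-Hp held 681.2, 556.7, 538.7 and 626.4 CPM and those of 5/6 Nx-LPi-Lp 387.0, 497.7, 380.7 and 431.6. No 5/6 Nx-HPi-Lp library overlapped with the other groups, and the other operated groups each overlapped Sham. The difference was 2.31-fold against Sham (log2 fold change 1.21 ± 0.21 SE, adjusted p = 0.00158), 2.07-fold against 5/6 Nx-HPi-Hp (1.05 ± 0.24, adjusted p = 0.0222) and 2.96-fold against 5/6 Nx-LPi-Lp (1.56 ± 0.23, adjusted p = 0.00307). The call against 5/6 Nx-HPi-Hp ended on leaving out 5/6 Nx-HPi-Lp replicate 2, 3 or 4 or 5/6 Nx-HPi-Hp replicate 2 or 3 (adjusted p = 0.0512 to 0.0691). Without the deepest pair of libraries the log2 fold changes were 0.92 against Sham, 0.74 against 5/6 Nx-HPi-Hp (adjusted p = 0.157) and 1.24 against 5/6 Nx-LPi-Lp, of which the last alone was called. Igfbp4 was highest in the same library as the fibroblast markers in 3 of 4 groups and as the macrophage markers in 3 of 4, the lowest libraries coincided in 3 of 4 for each, and their part in the difference was not tested.

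Igfbp2, a binding protein with an integrin-binding motif whose level rises with fasting in the liver, was higher in operated mice but varied widely. Sham held 17.6, 19.99, 17.6 and 18.0 CPM and 5/6 Nx-HPi-Lp 24.3, 56.7, 76.0 and 76.0. In 5/6 Nx-HPi-Hp it was 50.7, 53.4, 16.8 and 91.7 CPM and in 5/6 Nx-LPi-Lp 25.9, 23.3, 27.4 and 65.2. One 5/6 Nx-HPi-Hp library fell below every Sham library, whereas the other operated groups lay above Sham throughout. Igfbp2 was 3.09-fold higher than Sham in 5/6 Nx-HPi-Lp (log2 fold change 1.63 ± 0.30 SE, adjusted p = 0.00183) and 2.94-fold higher in 5/6 Nx-HPi-Hp (1.55 ± 0.39, adjusted p = 0.0180), the latter lost without Sham replicate 2 (adjusted p = 0.0508). In 5/6 Nx-LPi-Lp the log2 fold change was 0.98 ± 0.30 (adjusted p = 0.0339), just under the fold threshold, and it was 0.49 without 5/6 Nx-LPi-Lp replicate 4 (adjusted p = 0.00779) and 1.08 to 1.13, and called, without replicate 1, 2 or 3. Among operated mice the log2 difference of 5/6 Nx-HPi-Lp had 95% intervals of -0.97 to 1.15 against 5/6 Nx-HPi-Hp and -0.23 to 1.63 against 5/6 Nx-LPi-Lp.

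Igfbp7, the most abundant member, binds IGF weakly and is secreted by vascular cells. Its levels were 2220, 2351, 2378 and 2450 CPM in Sham and 1361, 1327, 1577 and 1061 in 5/6 Nx-HPi-Lp. In 5/6 Nx-HPi-Hp they were 1228, 1010, 428 and 2106 CPM and in 5/6 Nx-LPi-Lp 718, 943, 1367 and 1776. Sham libraries had a coefficient of variation (SD over mean) of 4.10% and lay above all 12 libraries of operated mice, whose groups overlapped. The log2 fold change against Sham was -0.86 ± 0.14 SE in 5/6 Nx-HPi-Lp (adjusted p = 0.000917), -0.96 ± 0.39 in 5/6 Nx-HPi-Hp (adjusted p = 0.0839) and -0.95 ± 0.26 in 5/6 Nx-LPi-Lp (adjusted p = 0.0199), none of which reached the fold threshold. Without 5/6 Nx-HPi-Hp replicate 4 the second of these was -1.41 (adjusted p = 0.00500). That library also had the highest smooth muscle marker sum of its group. The third was called without 5/6 Nx-LPi-Lp replicate 3 (-1.03) or 4 (-1.20). It was also called with scaling by totals (-1.18), limma at either pseudocount (-1.05), no count filter (-1.01) or a block on the replicate number (-1.04). With scaling by totals the first was -1.002 and called. The library with the highest Igfbp7 was the one with the highest smooth muscle sum in 2 of 4 groups, and the lowest libraries coincided in 3 of 4. In the plot of members against marker sums, 5/6 Nx-HPi-Lp libraries had 1061 to 1577 CPM of Igfbp7 at smooth muscle sums of 2254 to 5114 CPM, below those of every other library. The part of smooth muscle content in the Igfbp7 difference was not tested.

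**Figure D2:**
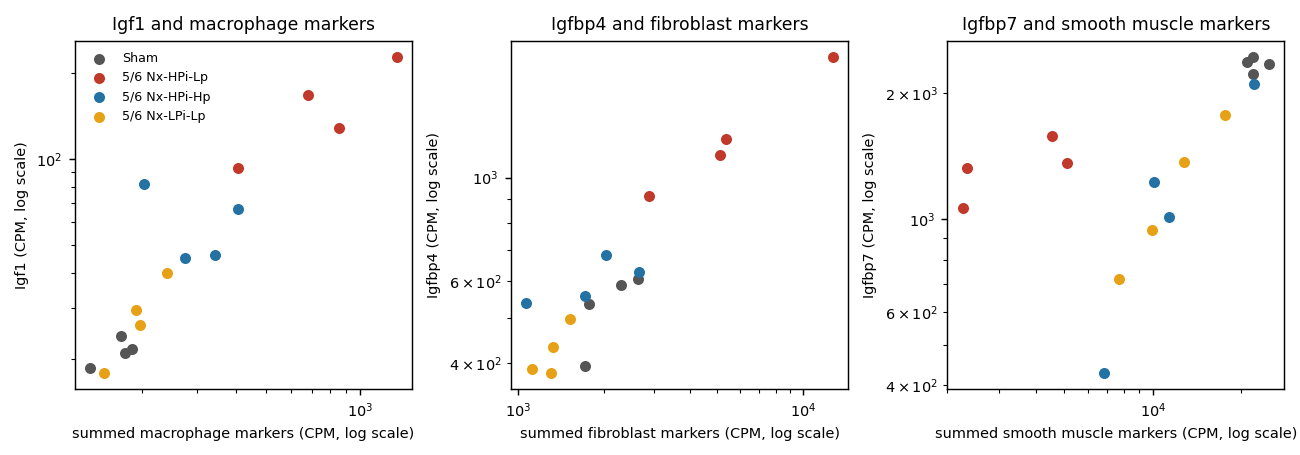
Level of Igf1, Igfbp4 and Igfbp7 (vertical axis, CPM, log scale) against the summed CPM of macrophage, fibroblast and smooth muscle markers (horizontal axis, log scale), 1 point per aorta, colored by group. The 5/6 Nx-HPi-Lp libraries combine high Igf1 with macrophage sums of 407 to 1313 CPM, and lie to the left of the other libraries in the smooth muscle panel with sums of 2254 to 5114 CPM.

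Igfbp5 and Igfbp6, the remaining binding proteins, were called in no comparison. Igfbp5, which binds the matrix and is made by smooth muscle cells, held 508.8, 464.5, 520.5 and 330.9 CPM in Sham, 246.9, 339.4, 302.0 and 437.7 in 5/6 Nx-HPi-Lp, 843.2, 346.4, 393.9 and 426.7 in 5/6 Nx-HPi-Hp and 424.8, 622.3, 308.2 and 462.7 in 5/6 Nx-LPi-Lp. All groups overlapped. Against Sham its log2 fold change in 5/6 Nx-HPi-Lp was -0.50 (95% interval -0.94 to -0.06, adjusted p = 0.0633). Igfbp6, which prefers IGF2 over IGF1, held 91.1, 107.8, 104.1 and 82.6 CPM in Sham, 120.1, 106.4, 40.8 and 154.8 in 5/6 Nx-HPi-Lp, 245.9, 96.6, 83.9 and 99.5 in 5/6 Nx-HPi-Hp and 84.8, 165.3, 56.96 and 97.4 in 5/6 Nx-LPi-Lp. Its groups overlapped as well, and its log2 difference between 5/6 Nx-HPi-Lp and Sham was 0.09 with an interval of -0.63 to 0.82. Replicate 1 of 5/6 Nx-HPi-Hp was the highest library of its group for both genes. Although Igfbp5 and Igfbp2 are neighbours in the genome, Igfbp2 was called higher in 5/6 Nx-HPi-Lp than in Sham and Igfbp5 had a negative log2 fold change, and the difference between the genes was not tested.

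**Figure D3:**
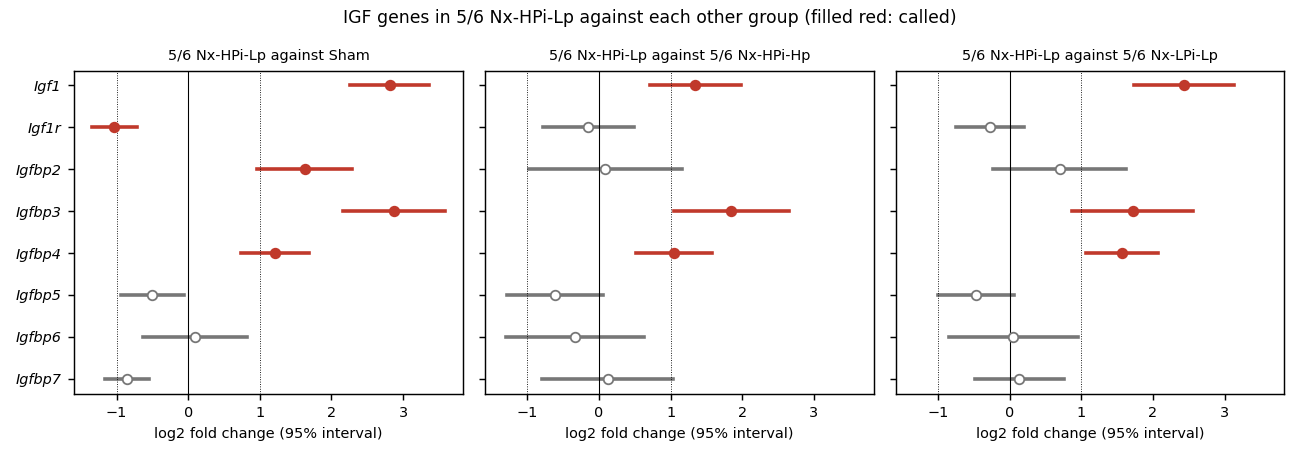
Log2 fold change of each gene (points) with its 95% interval (bars) in 5/6 Nx-HPi-Lp against the Sham, 5/6 Nx-LPi-Lp and 5/6 Nx-HPi-Hp groups; filled red points were called and dotted lines mark a log2 fold change of 1 in each direction. Igf1, Igfbp3 and Igfbp4 are to the right of the threshold in all 3 panels, and Igf1r passes it to the left against Sham alone.

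Counted over the 8 genes, 5 were called in 5/6 Nx-HPi-Lp against Sham (Igf1, Igfbp2, Igfbp3 and Igfbp4 higher, Igf1r lower), where 22.2% of 16513 genes tested were called, 15.0% higher and 7.18% lower. The groups did not overlap for 6 of the 8 genes, and for 41.6% of all genes tested. Against 5/6 Nx-HPi-Hp 3 were called, all higher, where 8.12% of genes were called (5.01% higher, 3.11% lower), and 3 did not overlap beside 20.6% of genes. Against 5/6 Nx-LPi-Lp 3 were called, all higher, where 11.9% of genes were called (7.90% higher, 3.98% lower), and 3 did not overlap beside 24.4% of genes. Igf1, Igfbp3 and Igfbp4 were called higher against each of the other 3 groups, as were 3.96% of the 15676 genes tested in all 3 comparisons, and none of the 8 was called lower against each, as were 1.57%. These comparisons share the 5/6 Nx-HPi-Lp libraries, so their counts are not independent. The median log2 fold change of the 8 genes was 0.65 against Sham, 0.11 against 5/6 Nx-HPi-Hp and 0.42 against 5/6 Nx-LPi-Lp, beside medians over all genes of 0.00, 0.01 and -0.02. With mitochondrially encoded genes left out, the same members were called in these 3 comparisons.

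The other operated groups were also set against Sham, from which they differ in both surgery and diet, so these cannot be told apart there. In 5/6 Nx-HPi-Hp 3 of the 8 genes were called higher, Igf1 (2.82-fold, log2 fold change 1.49 ± 0.20 SE, adjusted p = 0.00761), Igfbp2 and Igfbp3, where 12.2% of genes were called (9.41% higher, 2.75% lower). In 5/6 Nx-LPi-Lp 1 of 8 was called, Igfbp3, where 10.9% of genes were called (8.79% higher, 2.08% lower), and Igf1 had a log2 fold change of 0.43 (95% interval -0.04 to 0.90, adjusted p = 0.145). Groups did not overlap for 3 of the 8 genes in each of these comparisons, beside 33.5% and 33.9% of all genes. Between the groups 5/6 Nx-LPi-Lp and 5/6 Nx-HPi-Hp none of the 8 was called by edgeR, where 0.00% of 15850 genes were called and 1420 had an unadjusted p below 0.05. Igf1 was 2.11-fold higher in 5/6 Nx-HPi-Hp with no overlap (log2 fold change 1.07, 95% interval 0.48 to 1.67, unadjusted p = 0.00245, adjusted p = 0.492), and DESeq2, which called 76 genes, gave it an adjusted p of 0.04998, just inside the threshold. Igfbp4 also did not overlap (log2 fold change 0.50, interval 0.10 to 0.90, adjusted p = 0.534), which makes 2 of 8 genes beside 5.25% of all genes.

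The make-up of binding protein mRNA differed between Sham and the operated mice. Summed over Igfbp2 to Igfbp7, FPKM was 2234 ± 56.2 (SD, n = 4) in Sham, 1579 ± 130 in 5/6 Nx-HPi-Lp, 1371 ± 638 in 5/6 Nx-HPi-Hp and 1279 ± 374 in 5/6 Nx-LPi-Lp. Igfbp7 made up 86.8% ± 1.98 of this sum in Sham, 68.9% ± 7.11 in 5/6 Nx-HPi-Lp, 69.2% ± 11.7 in 5/6 Nx-HPi-Hp and 75.9% ± 9.04 in 5/6 Nx-LPi-Lp. Igfbp4 made up 5.38% ± 1.05, 17.8% ± 4.46, 11.7% ± 5.29 and 7.97% ± 2.35 in the same order. The share of Igfbp4 ranged from 3.94% to 6.38% in Sham and from 13.6% to 24.0% in 5/6 Nx-HPi-Lp, without overlap. It ranged from 6.76% to 19.2% in 5/6 Nx-HPi-Hp, above Sham and overlapping 5/6 Nx-HPi-Lp, and from 5.52% to 10.3% in 5/6 Nx-LPi-Lp, overlapping Sham and below 5/6 Nx-HPi-Lp. Per 100 FPKM of binding proteins, Igf1 had 0.0962 ± 0.0124 FPKM in Sham, 0.977 ± 0.346 in 5/6 Nx-HPi-Lp, 0.587 ± 0.481 in 5/6 Nx-HPi-Hp and 0.249 ± 0.121 in 5/6 Nx-LPi-Lp. The highest Sham value (0.113) lay below the lowest 5/6 Nx-HPi-Lp value (0.619), and 5/6 Nx-HPi-Hp ranged from 0.218 to 1.29. These shares describe mRNA and were not tested.

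**Figure D4:**
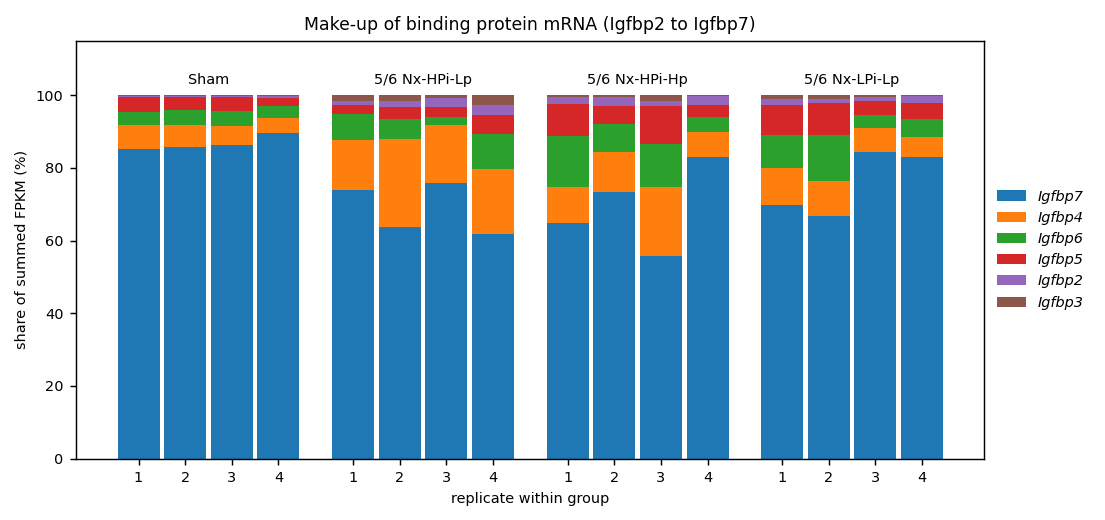
Share of each binding protein gene in the summed FPKM of Igfbp2 to Igfbp7 (vertical axis, percent), 1 bar per aorta, ordered by group and replicate. Igfbp7 takes 85.3% to 89.7% in Sham and 61.7% to 75.9% in 5/6 Nx-HPi-Lp, where Igfbp4 takes 13.6% to 24.0%. In 5/6 Nx-HPi-Hp Igfbp7 takes 55.7% to 83.0% and in 5/6 Nx-LPi-Lp 66.7% to 84.4%.

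Genes that act on IGF outside the cell, among them proteases of the binding proteins, were called in both directions against Sham. Of the 13 genes of that list 11 were tested, and 4 were called higher and 2 lower in 5/6 Nx-HPi-Lp than in Sham, 2 higher than in 5/6 Nx-HPi-Hp and 2 higher than in 5/6 Nx-LPi-Lp. Of all genes tested, 15.0% were called higher and 7.18% lower against Sham, 5.01% higher against 5/6 Nx-HPi-Hp and 7.90% higher against 5/6 Nx-LPi-Lp. Pappa, which encodes the protease that cleaves IGFBP4, had 1.10 ± 0.43 CPM in Sham, 9.58 ± 3.83 in 5/6 Nx-HPi-Lp, 1.14 ± 0.63 in 5/6 Nx-HPi-Hp and 1.20 ± 0.52 in 5/6 Nx-LPi-Lp (SD, n = 4), and was called higher in 5/6 Nx-HPi-Lp against Sham (log2 fold change 3.07 ± 0.38 SE, adjusted p = 0.000226), 5/6 Nx-HPi-Hp (3.02 ± 0.45, adjusted p = 0.00497) and 5/6 Nx-LPi-Lp (2.99 ± 0.40, adjusted p = 0.00232). Mmp2, a matrix metalloproteinase made by fibroblasts, was called higher against 5/6 Nx-HPi-Hp (2.31 ± 0.39, adjusted p = 0.00770) and 5/6 Nx-LPi-Lp (2.91 ± 0.36, adjusted p = 0.00184). Igfals, the acid-labile subunit that holds IGF1 and IGFBP3 in a ternary complex, was higher than Sham (3.40 ± 0.63, adjusted p = 0.00197), from 0.907 ± 0.967 CPM to 9.76 ± 3.03, and it was also called higher than Sham in the other operated groups. Against Sham, Stc2, which encodes an inhibitor of PAPP-A, fell by 1.31 on the log2 scale (SE 0.23, adjusted p = 0.00145), and Htra1, a secreted serine protease that can cleave IGFBP5, fell by 1.82 (SE 0.13, adjusted p = 1.97e-05). The remaining calls against Sham, named after their values were seen, were Pappa2 (1.31, adjusted p = 0.00434) and Mmp2 (2.52, adjusted p = 0.000482), both higher. The median log2 fold change of the tested genes was 0.21 against Sham, 0.34 against 5/6 Nx-HPi-Hp and 0.57 against 5/6 Nx-LPi-Lp.

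Growth hormone signaling genes, which sit upstream of Igf1 in liver, were 8 and all were tested. In 5/6 Nx-HPi-Lp 3 were called higher than in Sham, 1 than in 5/6 Nx-HPi-Hp and 2 than in 5/6 Nx-LPi-Lp, and none was called lower, where 15.0%, 5.01% and 7.90% of all genes were called higher. Socs3, a feedback inhibitor of cytokine receptors, rose from 11.7 ± 1.14 CPM in Sham to 81.8 ± 44.5 in 5/6 Nx-HPi-Lp (log2 fold change 2.76 ± 0.36 SE, adjusted p = 0.000283), and was also called higher there than in 5/6 Nx-HPi-Hp, at 15.6 ± 4.25 CPM (2.36 ± 0.39, adjusted p = 0.00698) and than in 5/6 Nx-LPi-Lp, at 10.01 ± 2.55 (3.01 ± 0.40, adjusted p = 0.00230). Ghr, the growth hormone receptor, was 70.8 ± 6.78 CPM in Sham and 250 ± 76.7 in 5/6 Nx-HPi-Lp (1.79 ± 0.20, adjusted p = 0.000138), and was higher there than in 5/6 Nx-LPi-Lp (1.17 ± 0.25, adjusted p = 0.0126). The third call against Sham, named after its value was seen, was Cish, another feedback inhibitor (1.64, adjusted p = 0.00219). The medians of the list were 0.53, 0.29 and 0.22 in the order above. Adipocytes and fibroblasts also express Ghr. The adipocyte marker sum was 462 to 1183 CPM in Sham and 3181 to 5572 in 5/6 Nx-HPi-Lp, with 5 of 6 markers called higher. It was 1031 to 6878 CPM in 5/6 Nx-HPi-Hp and 2523 to 7027 in 5/6 Nx-LPi-Lp. In each of these groups 6 of 6 markers were called higher than in Sham. Ghr was 121 ± 62.9 CPM in 5/6 Nx-HPi-Hp and 110 ± 26.7 in 5/6 Nx-LPi-Lp. The part of adipocytes in the Ghr difference was not tested.

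Of the intracellular IGF1R signaling genes, 0 of 24 were called higher and 2 lower against Sham, 1 higher and 1 lower against 5/6 Nx-HPi-Hp, and 1 higher and 2 lower against 5/6 Nx-LPi-Lp. Called in either direction were 22.2%, 8.12% and 11.9% of all genes. Grb14, an adaptor that inhibits insulin receptor signaling, was 60.5 ± 5.36 CPM in Sham, 21.6 ± 3.17 in 5/6 Nx-HPi-Lp, 44.2 ± 4.75 in 5/6 Nx-HPi-Hp and 55.1 ± 13.0 in 5/6 Nx-LPi-Lp, and was called lower against each (log2 fold changes -1.53, -1.06 and -1.36, with adjusted p = 4.28e-05, 0.00552 and 0.00230). The related adaptor Grb10, which restrains IGF1R, was 89.9 ± 28.5 CPM in 5/6 Nx-HPi-Lp, 35.6 ± 4.10 in 5/6 Nx-HPi-Hp and 36.0 ± 7.12 in 5/6 Nx-LPi-Lp, and was called higher in the first than in the other two (log2 fold changes 1.31 ± 0.20 and 1.31 ± 0.23, adjusted p = 0.00556 and 0.00606), with 52.2 ± 4.45 in Sham. Mtor, the growth-controlling kinase, was lower than in 5/6 Nx-LPi-Lp (-1.28 ± 0.30, adjusted p = 0.0175), where it reached 136 ± 59.9 CPM beside 56.6 ± 9.41 in 5/6 Nx-HPi-Lp and 64.8 ± 7.98 in Sham. The medians of the 24 genes were -0.18, 0.09 and -0.07.

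**Figure D5:**
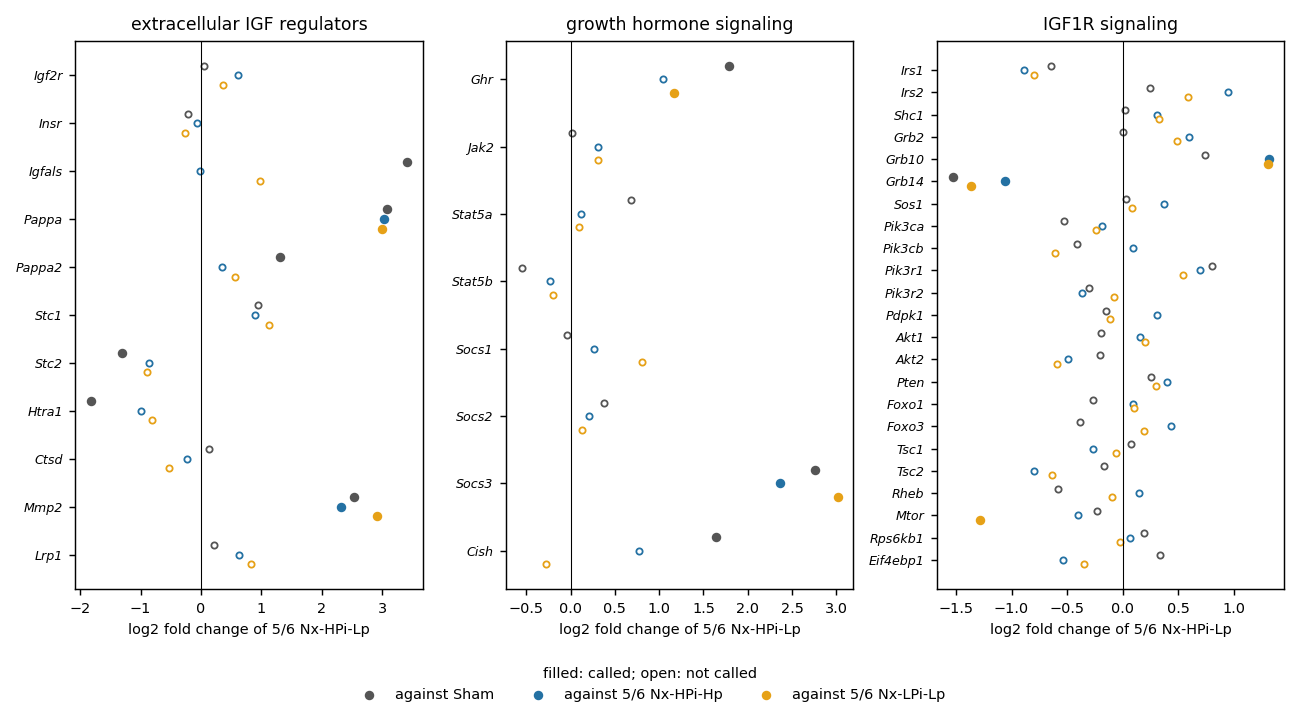
Log2 fold change (horizontal axis) of tested genes of 3 lists in 5/6 Nx-HPi-Lp against Sham (grey), 5/6 Nx-HPi-Hp (blue) or 5/6 Nx-LPi-Lp (yellow); filled points were called. Pappa, Mmp2 and Socs3 are called higher in all 3 comparisons and Grb14 lower in all 3.

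Some genes outside these lists had levels that followed a member closely. Likeness was the mean absolute difference between gene-centered log2(CPM + 1) values over the 16 libraries, over the 15034 genes that averaged at least 1 CPM. Apoe (0.23) and Cotl1 (0.24) were nearest to Igf1, whose own values deviated from their mean by 0.96 on average. Apoe, which encodes apolipoprotein E, averaged 631 CPM in Sham, 2863 in 5/6 Nx-HPi-Lp, 1290 in 5/6 Nx-HPi-Hp and 680 in 5/6 Nx-LPi-Lp, the same order of groups as Igf1. Spg20 and Cep170b (both 0.12) were nearest to Igf1r, and Slit3 and Crispld2 (both 0.15) to Igfbp7. Abcb1a (0.24) and Upp1 (0.33) were nearest to Igfbp3, and 1700025G04Rik (0.13) and C1s1 (0.14) to Igfbp4. For Igfbp2 they were Ltb4r1 (0.35) and Pilrb2 (0.39), for Igfbp5 Lefty1 (0.20) and Rps29 (0.22), and for Igfbp6 Enho (0.28) and Mcph1 (0.30). For Igfbp6 the distance was close to the gene's own mean deviation of 0.39, so its nearest genes were hardly alike. The mean deviation of Igfbp5 was 0.33, not far above its distances, so its nearest genes were only loosely alike. These distances describe libraries that share group, depth and tissue composition.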

How the data were processed

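RNA from 16 mouse aortas was sequenced. The authors aligned reads with HISAT2 to mm10 and counted them per gene with featureCounts 1.5.0-p3. They deposited whole-number counts and FPKM values for 54532 genes, and counting options on strand are not given in the sources used here. Library totals ranged from 13659525 to 57276915 counts, and every pair of libraries of a group differed by a chi-square of at least 21.9 on average over genes, so no library was a copy.

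Each pair of groups was tested in R 4.3.3 with edgeR 4.0.16 (filterByExpr, TMM, quasi-likelihood test, 8 libraries) with Benjamini-Hochberg adjustment over all genes tested. Calls needed an adjusted p of 0.05 or less and a 2-fold change or more in either direction. Levels are CPM after TMM scaling of the 16 libraries, and genes were compared with one another by FPKM only. The scripts were tested on simulated data.

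Members and gene lists were chosen with earlier results of these data known. Members were named in every comparison. Of each list, the rule named per comparison of 5/6 Nx-HPi-Lp at most 2 called genes per direction, by fold change, averaging 50 counts or more in a group, and for each member the 2 nearest genes. The alternatives tried were scaling by RLE or by totals, DESeq2 1.42.0, and limma 3.58.1 on log2 FPKM with a pseudocount of 1 or 0.1 where the mean exceeded 0.5 FPKM. Further ones were no count filter, a minimum of 10 counts per library, one fit of all groups, a block on the replicate number, no threshold on the fold, exclusion of mitochondrially encoded genes, and the omission of each library. Thinning to the lowest total and leaving out the deepest pair of 5/6 Nx-HPi-Lp libraries were chosen after seeing the data. One gene of the IGF1R signaling list enters its counts and medians but is not reported here by itself. Replicate numbers name separate mice. Fits that leave out 1 library keep at least 3 per group. Figures were drawn with Python 3.11.15 and matplotlib 3.10.9.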

Additional observations from a re-analysis of the deposited data

Results flagged for a closer look

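Among 32 sets of 4 libraries, 1 per gene and group, 4 had 1 library far from the others by Dixon's test of the gap between the end library and its neighbour, where chance gives about 1 in 20. Igfbp2 in 5/6 Nx-LPi-Lp was 65.2 CPM in replicate 4, above 23.3 to 27.4 in the others. Igfbp2 in Sham was 19.99 CPM in replicate 2, above 17.6 to 18.0 in the others. Igfbp5 in 5/6 Nx-HPi-Hp was 843 CPM in replicate 1, above 346 to 427 in the others. Igfbp6 in the same library was 246 CPM, above 83.9 to 99.5 in the others.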

How the results depend on the processing

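The count of members called in 5/6 Nx-HPi-Lp was 5 against Sham (4 to 5 with 1 library left out, 3 without the deepest pair of 5/6 Nx-HPi-Lp libraries), 3 against 5/6 Nx-HPi-Hp (1 to 3 with 1 library left out, 1 without 5/6 Nx-HPi-Lp replicate 4 or 5/6 Nx-HPi-Hp replicate 2, and 1 without the deepest pair) and 3 against 5/6 Nx-LPi-Lp (3 under every library left out). Against Sham it was 3 in 5/6 Nx-HPi-Hp (1 to 5 with 1 library left out, 1 without Sham replicate 2, 5 without 5/6 Nx-HPi-Hp replicate 4, 1 with limma at either pseudocount) and 1 in 5/6 Nx-LPi-Lp (0 to 3 with 1 library left out, 0 without Sham replicate 1, 2 or 3, 3 without 5/6 Nx-LPi-Lp replicate 3, 2 without replicate 4, 2 with limma at a pseudocount of 0.1, 2 with no count filter, 4 with no fold-change threshold). Between 5/6 Nx-LPi-Lp and 5/6 Nx-HPi-Hp it was 0, and 1 with DESeq2. Summed over the 6 comparisons, calls among extracellular regulators went from 12 to 20 with no fold-change threshold, among growth hormone genes from 7 to 12 and among IGF1R signaling genes from 9 to 32.

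A replicate block left 0 members called in 5/6 Nx-HPi-Lp against 5/6 Nx-HPi-Hp, and 371 genes in place of 1315. The labels number the animals within each group and give no pairing across groups. The correlation of same-numbered deviations ran from -0.27 to 0.54, and 6 of 24 correlated best with their own number. With 4 candidates each, about 1 in 4 would do so without any pairing. The 6 included replicates 1, 2 and 4 in 5/6 Nx-HPi-Hp against 5/6 Nx-LPi-Lp (0.19, 0.15 and 0.54). Whether same-numbered mice shared a batch is not given in the sources used here.

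Signs reversed only for genes not called in that comparison. For Igfbp6 in 5/6 Nx-HPi-Lp against Sham the log2 fold change was -0.035 with total-count scaling, -0.024 and -0.027 with limma, -0.042 with the block and down to -0.14 with 1 library left out. Without the deepest pair it was -0.12 (Igfbp2), 0.050 (Igfbp6) and -0.015 (Igfbp7) against 5/6 Nx-HPi-Hp, and -0.011 (Igfbp7) against 5/6 Nx-LPi-Lp. Total-count scaling gave -0.015 (Igfbp4) and -0.042 (Igfbp5) in 5/6 Nx-HPi-Hp against Sham. In 5/6 Nx-LPi-Lp against Sham, Igfbp5 was -0.23 with total-count scaling, -0.00955 with DESeq2, -0.025 and -0.026 with limma, -0.050 with no count filter, -0.00483 in one fit of all libraries and -0.00877 with the block, and Igfbp6 was -0.16 with total-count scaling, -0.027 and -0.028 with limma and -0.00769 with the block. In 5/6 Nx-HPi-Hp against 5/6 Nx-LPi-Lp, Igfbp7 was 0.00106 with RLE, 0.053 with total-count scaling, 0.00553 with at least 10 counts and 0.000613 without mitochondrially encoded genes.
With 1 library left out, the log2 fold changes that reversed ranged as follows. For 5/6 Nx-HPi-Lp against Sham they were -0.14 to 0.38 (Igfbp6). For 5/6 Nx-HPi-Lp against 5/6 Nx-HPi-Hp they were -0.37 to 0.14 (Igf1r), -0.23 to 0.52 (Igfbp2), -0.58 to 0.14 (Igfbp6) and -0.18 to 0.57 (Igfbp7). For 5/6 Nx-HPi-Lp against 5/6 Nx-LPi-Lp they were -0.18 to 0.36 (Igfbp6) and -0.064 to 0.41 (Igfbp7). For 5/6 Nx-HPi-Hp against Sham they were -0.23 to 0.29 (Igfbp5) and -0.047 to 0.62 (Igfbp6). For 5/6 Nx-LPi-Lp against Sham they were -0.18 to 0.15 (Igfbp5) and -0.26 to 0.27 (Igfbp6). For 5/6 Nx-HPi-Hp against 5/6 Nx-LPi-Lp they were -0.43 to 0.074 (Igf1r), -0.34 to 0.15 (Igfbp3), -0.22 to 0.32 (Igfbp5), -0.11 to 0.71 (Igfbp6) and -0.45 to 0.28 (Igfbp7).

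Igf1r against Sham in 5/6 Nx-HPi-Lp stayed below -0.78 but missed the fold threshold with limma (-0.79 and -0.99), in one fit of all libraries (-0.99), with thinned libraries (-0.999) and without the deepest pair (-0.89). Counts over all genes moved more: 3666 against Sham became 2057 with limma at a pseudocount of 1 and 7089 with no fold-change threshold. For 5/6 Nx-HPi-Hp the main count of 1315 became 2097 with DESeq2, 783 with limma, 2011 in one fit of all libraries, 744 without the deepest pair and 2113 with no fold-change threshold, and for 5/6 Nx-LPi-Lp 1931 became 1068 with limma, 1271 with the block and 3262 with no fold-change threshold. In 5/6 Nx-HPi-Hp against Sham 1932 became 878 and 4990, in 5/6 Nx-LPi-Lp against Sham 1748 became 870 and 5115, with limma and with no fold-change threshold, and between these groups 0 became 76 with DESeq2, 12 with no count filter and 10 with the block. With 1 library left out, 1315 became 638 (5/6 Nx-HPi-Lp replicate 4 omitted) or 682 (5/6 Nx-HPi-Hp replicate 2 omitted), 1931 became 1278 without 5/6 Nx-HPi-Lp replicate 4, and 1932 became 1091 without Sham replicate 2 and 3161 without 5/6 Nx-HPi-Hp replicate 4; the shares of all genes called rest on these counts. Total-count scaling moved the median of all genes by -0.14, -0.19 and -0.22 in the comparisons with Sham and the split of higher and lower calls from 2480 and 1186 to 2225 and 1540, from 1495 and 437 to 972 and 892, and from 1413 and 335 to 1048 and 842. Of the calls named for members, Igfbp3 against Sham was lost under it in 5/6 Nx-HPi-Hp (0.84) and in 5/6 Nx-LPi-Lp (0.95). Calls against Sham gained under it were Igfbp7 in 5/6 Nx-HPi-Lp (-1.002) and 5/6 Nx-LPi-Lp (-1.18), and Igf1r in 5/6 Nx-HPi-Hp (-1.05). The causes were not tested.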
